A study of Mus musculus with 20 samples.

Results

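Messenger RNA was sequenced from the corpus callosum of Zdhhc9 knockout and wild-type mice, and the 11 callosum libraries carry numbers of 2 kinds in their names. Of these, 4 have a number of 2 digits (27, 28, 29 and 30, called short-number libraries below), and 7 have a number of 6 or 7 digits (long-number libraries). They are 11 of the 20 libraries of the series, and the other 9 come from the optic nerve. Both kinds of number hold both genotypes: KO_CCg_27 and KO_CCg_29 are short-number knockout libraries, WT_CCg_28 and WT_CCg_30 are short-number wild-type libraries, and the long-number libraries are 4 knockout and 3 wild-type. The labels name no treatment, age, sex, strain or date, and do not say what the format of a number stands for, so the comparison is between libraries that differ in how they were named, with the genotype kept in the model. The labels call the genotype a knockout, while the design text of the series calls it a knockdown; which part of Zdhhc9 was changed is not given in the sources used here. The callosum was cut from cryostat sections of frozen brain and dissected on dry ice. Nothing says that each library came from an animal of its own, so every p-value here rests on how much these libraries varied.

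The corpus callosum is a thick band of nerve fibres between both cerebral hemispheres. It is made of the axons of cortical neurons, most of them wrapped in myelin by oligodendrocytes, together with astrocytes, microglia, oligodendrocyte precursors and blood vessels. Cell bodies of neurons are rare in it. Cortex lies above it, striatum beside it, and septum and the lining of the lateral ventricle below it, so markers of those tissues were listed beside those of the tract.

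Total estimated counts were lower in every short-number library (15401130 to 19531571) than in any long-number library (21917519 to 25375187). The mean difference within genotypes was -5947365 counts (exact two-sided permutation of the format within genotype, p = 0.00667, the smallest that 150 groupings allow; adjusted p = 0.03 over 9 measures of the libraries). The biological coefficient of variation over the 11 libraries was 18.5%. On the first principal component of all genes tested, which held 42.8% of the variance, the formats overlapped: KO_CCg_27 lay at -7.41 and WT_CCg_717652 at -15.0, while the other short-number libraries lay between -63.6 and -40.2 and the other long-number libraries between 13 and 45. Myelin genes, which mark the labelled tissue, were abundant in all 11 libraries. Mbp, a major protein of compact myelin, ranged from 12707 to 31242 CPM (the count of a gene relative to all counts of its library). CPM values here are not TMM-scaled, while fold changes use TMM factors, which ranged from 0.932 to 1.04.

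Zdhhc9, the gene of a palmitoyltransferase, checked the genotype labels and did not separate the formats. Its level was 43.1 and 51.2 CPM in the short-number knockout libraries and 182 and 186 CPM in the short-number wild-type libraries. With the genotype in the model its log2 fold change, always given here as short minus long, was -0.02 (SE 0.10, edgeR adjusted p = 0.89).

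Of 16228 genes tested, 4320 passed an adjusted p under 0.05 (26.6%), 2244 of them higher (13.8%) and 2076 lower (12.8%) in the short-number libraries. Most of these differences were small, with a median absolute log2 fold change of 0.51 over the genes that passed, and 138 of the higher and 571 of the lower genes differed by at least 1. Leaving out KO_CCg_29 or WT_CCg_28 brought the number that passed to 1912 and 2005. In 1785 of the 4320 the 2 groups of libraries did not overlap in CPM; over all genes tested, the short-number libraries were all above the long-number libraries in 6.67% and all below them in 5.47%. The level of neuron transcripts moved with the format. With the mean level of 20 pan-neuronal genes as a covariate, 41 genes passed (35 higher and 6 lower), 36 of them among the 4320, while 4170 of the 4320 kept their sign. That level and the format correlated at r = -0.72 over the 11 libraries, a description only, since the covariate takes up much of what the format holds.

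The difference was seen in each genotype, which share no library. Within the knockout, as a contrast of 2 against 4 libraries in the fit of all 11, 850 genes passed (5.24%), with 418 higher (2.58%) and 432 lower (2.66%). Within the wild type, 2 against 3, 33 genes passed (0.203%), with 30 higher (0.185%) and 3 lower (0.0185%), and 28 genes passed in both. Of the 850 genes called in the knockout, 837 (98.5%) had the same sign in the wild type, against 79.0% of all genes tested. For 684 of the 850 the wild-type short-number libraries lay entirely on that side of the long-number ones. The same count was not made over all genes tested, so this number has no share to be set against. A fit of the 6 knockout libraries alone called 550 genes and one of the 5 wild-type libraries alone 15. The count in the knockout depends on single libraries: it ran from 14 without KO_CCg_29 to 1727 without KO_CCg_27, and was 82 without KO_CCg_693452, 116 without KO_CCg_693451, 197 without KO_CCg_719856 and 334 without KO_CCg_717651. In the wild type it fell to 6 without WT_CCg_28, 9 without WT_CCg_30, 17 without WT_CCg_685232, 18 without WT_CCg_717652 and 16 without WT_CCg_7198587. The test of the difference between the genotypes called 0 genes in edgeR, with 454 at an unadjusted p under 0.05; DESeq2 called 1 and limma-voom 0.

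**Figure D1:**
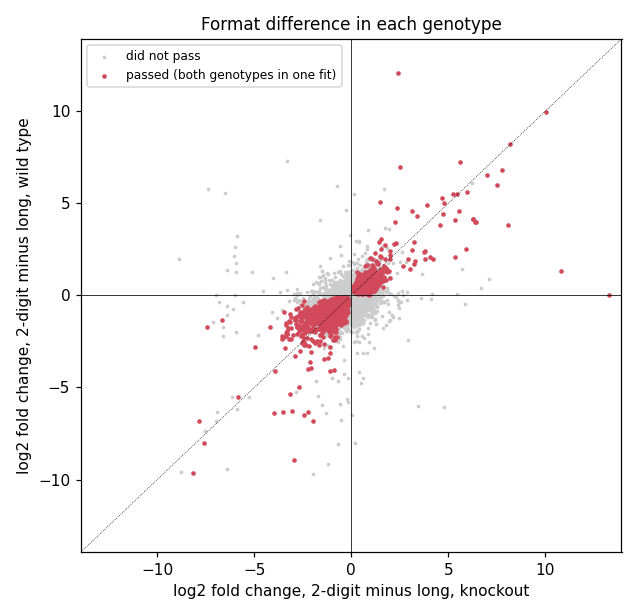
Each point is a gene tested; the horizontal axis gives its log2 fold change (short minus long numbers) in the knockout libraries and the vertical axis that in the wild-type libraries, with the 4320 genes that passed with both genotypes in the model in red. All but 1 of the 4320 lie at the lower left or the upper right, with the same sign in both genotypes, which the choice of genes by their joint difference favours.

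A small set of genes behaved as if present in one format and nearly absent in the other, and most were pseudogenes or predicted genes. In 13 genes every short-number library was at least 4-fold above every long-number library and at least at 1 CPM; this rule was chosen after values were seen. Of these, 7 are pseudogenes, 4 are predicted genes, and the others are Elp6 and Tulp1; 0 genes met the same rule in the opposite direction. In 11 of the 13, each short-number callosum library was also at least 4-fold above all 9 optic nerve libraries. Pseudogenes are copies of genes, often of their spliced messenger RNA, so reads from such a copy and from its parent can be hard to assign. Over these 13 genes the median share of 31-base words that also occur in transcripts of another gene was 89.0%, against 0.602% over all genes tested. Elp6 (8.27%) and Tulp1 (2.30%) had far lower shares than that median. Reads cannot be traced to 1 gene in the deposited table, so levels of these genes are uncertain, above all where the share is high.

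Elp6 (ENSMUSG00000054836.11, mm10 chromosome 9, 110305173 to 110322102), a subunit of the Elongator complex that modifies transfer RNA, had the smallest p of the 13. Its level was 3601, 4298, 4354 and 4228 CPM in KO_CCg_27, KO_CCg_29, WT_CCg_28 and WT_CCg_30. In the long-number libraries it ranged from 10.9 to 19.0 CPM with a median of 14.6, and in the optic nerve from 9.95 to 17.1 CPM. The 4 short-number libraries thus stood apart from all 16 others of the series, and Elp6 differed by 8.18 in log2 (SE 0.17, edgeR adjusted p = 9.85e-11). It was 8.17 in the knockout and 8.20 in the wild type. Of the 2890 different 31-base words in its annotated transcripts, 239 also occur in other genes, 718 of them. Tulp1 (ENSMUSG00000037446.12, mm10 chromosome 17, 28351515 to 28365222), best known from photoreceptors, was at 18.6, 20.8, 13.4 and 24.1 CPM in the same order, against 0.49 to 0.939 CPM in the long-number libraries (log2 fold change 4.88, SE 0.19, adjusted p = 5.79e-08). It too shares words with many genes (159 of 6909, with 629 genes).

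The shortest of the 13 transcripts show what that sharing looks like. The 2 sequences below are the annotated coding transcripts of predicted genes Gm11032 (mm10 chr11:4620067-4621698, plus strand) and Gm10491 (mm10 chrX:7907693-7907835, minus strand), spliced, 5′ to 3′, with capitals marking runs of at least 15 bases that both hold.
Gm11032: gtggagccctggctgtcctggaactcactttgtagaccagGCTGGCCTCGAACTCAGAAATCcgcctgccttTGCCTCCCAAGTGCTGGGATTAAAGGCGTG
Gm10491: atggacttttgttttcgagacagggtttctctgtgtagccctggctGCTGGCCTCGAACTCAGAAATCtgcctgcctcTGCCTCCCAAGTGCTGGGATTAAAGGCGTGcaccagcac
Sequence of this kind belongs to the B1 family of short interspersed repeats, which are scattered through the mouse genome and through many of its transcripts. Of the 102 bases of Gm11032 and the 117 of Gm10491, 52 lie in such runs. All 72 words of Gm11032 occur in other genes, 1027 of them, and 60 of the 87 words of Gm10491 occur in 1061 other genes. Gm11032 was at 14.4, 19.4, 15.8 and 12.3 CPM in KO_CCg_27, KO_CCg_29, WT_CCg_28 and WT_CCg_30 and at 0.203 to 0.494 CPM in the long-number libraries (log2 fold change 5.49, SE 0.21, edgeR adjusted p = 5.79e-08). Gm10491 was at 8.45, 9.88, 9.83 and 8.07 CPM against at most 0.464 CPM (log2 fold change 5.34, SE 0.39, adjusted p = 3.36e-05).

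Some of the pseudogenes and predicted genes could be set beside a gene that shares most of their sequence, and these did not move alike. Gm21596 shares 1145 of its 1286 words with other genes, foremost Hmgb1, which codes for a chromatin protein, and was at 33.9 to 52.6 CPM in the short-number libraries against 1.35 to 4.82 CPM in the long-number ones. Hmgb1 itself rose, by 0.50 on the log2 scale (edgeR adjusted p = 0.00455), to 260, 304, 313 and 310 CPM from a long-number median of 219. Gm8797 shares 428 of its 460 words with other genes, among them Ubb, a polyubiquitin gene, and was at 7.59 to 24.3 CPM against 0.288 to 0.996 CPM, while Ubb fell by 0.41 (adjusted p = 0.0161). Rpl17-ps8 was at 16.3 to 19.0 CPM against at most 0.445 CPM, and Rpl17, a protein of the large ribosomal subunit, had a log2 fold change of -0.28 (adjusted p = 0.0532). Rpl39-ps was at 16.3 to 27.6 CPM against 0.329 to 2.59 CPM, and Rpl39 fell by 0.40 (adjusted p = 0.0239). Over all 612 pseudogenes tested, 97 passed as higher (15.8%) and 39 as lower (6.37%), against 13.8% higher and 12.8% lower among all genes tested.

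**Figure D2:**
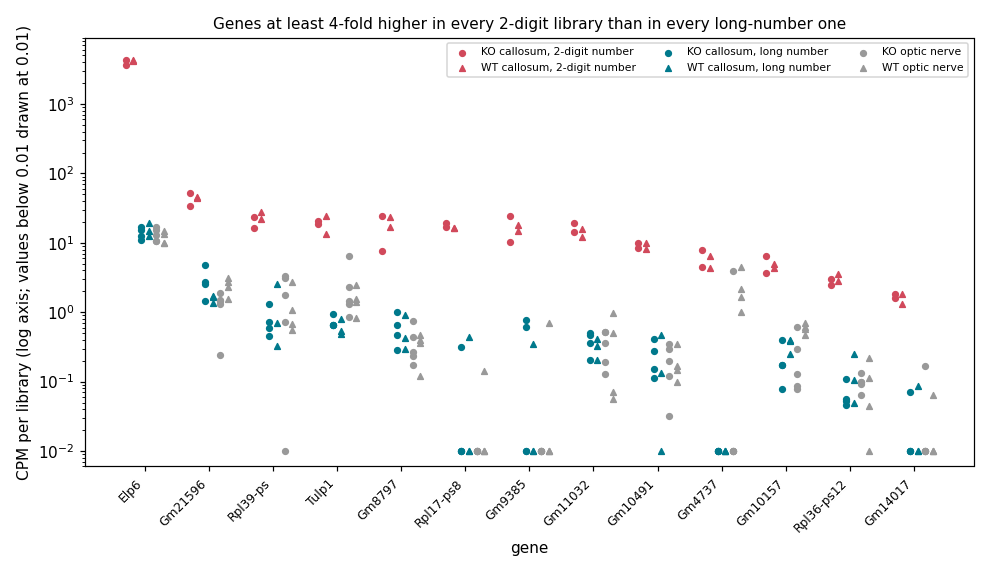
Each column is 1 of the 13 genes, and each point 1 of the 20 libraries on a log axis of CPM, coloured by number format or tissue and shaped by genotype, with values near 0 drawn along the foot of the plot. The red points of the short-number callosum libraries stand above all blue long-number ones in every column, from 3601 to 4354 CPM for Elp6 down to 1.3 to 1.86 CPM for Gm14017; in Tulp1 and Gm4737 some grey optic nerve points come within 4-fold of them.

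Several of the genes with the largest falls are known from cortical neurons. Slc17a7 (ENSMUSG00000070570.4, mm10 chromosome 7, 45163949 to 45176142), the vesicular glutamate transporter of cortical excitatory neurons, was at 100, 41.7, 57.4 and 222 CPM in KO_CCg_27, KO_CCg_29, WT_CCg_28 and WT_CCg_30. In the long-number libraries it ranged from 243 to 748 CPM with a median of 519, so the groups did not overlap, although WT_CCg_30 came close to the lowest of them. Its log2 fold change was -2.25 (SE 0.48, edgeR adjusted p = 0.00784). Neurod2, a transcription factor of those neurons, was at 6.64, 2.77, 3.64 and 13 CPM against 21.3 to 50.6 CPM (log2 fold change -2.49), and Prdm8, another transcription regulator, at 2.13, 3.30, 2.60 and 10.9 CPM against 12.7 to 57.4 CPM (-2.80). Cabp7, a calcium-binding protein, was 6.22, 4.63, 5.07 and 16 CPM against 29.7 to 81.3 CPM (-2.77). Scgn, which codes for secretagogin, fell by 2.74, Rtn4rl2, a Nogo receptor family member, by 2.47, Ramp3, a receptor activity-modifying protein, by 2.44, and Npr3, the natriuretic peptide clearance receptor, by 2.35. Scgn was low, at 0.0649 to 1.23 CPM against 1.2 to 6.74 CPM, with overlap.

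Lrrc17 and Grip2 fell as much but from a high level. Lrrc17, a secreted leucine-rich repeat protein (ENSMUSG00000039883.5, mm10 chromosome 5, 21543559 to 21575904), was at 333, 411, 434 and 503 CPM in the short-number libraries and from 1299 to 4293 CPM in the long-number ones, a log2 fold change of -2.73 (SE 0.38, edgeR adjusted p = 0.00239). Lrrc17 and Ramp3 were the genes in which every short-number library was at least 2-fold below every long-number one. Of the 3576 words of Lrrc17, 35 also occur in Elp6. Grip2, a scaffold protein of glutamate receptors, was at 188, 293, 170 and 172 CPM against 428 to 2826 CPM (log2 fold change -2.26). In the optic nerve it was at 47984 CPM in KO_ON_719856 and from 422 to 1522 CPM in the other 8 libraries.

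The pan-neuronal, cortical and interneuron lists fell in far larger shares than the 12.8% of all genes, and the part that neighbouring tissue in the dissection has in this was not tested. In these bulk samples, fewer cells of a type and less RNA per cell cannot be told apart. Of the 20 pan-neuronal genes, 16 fell and 0 rose, with a median log2 fold change of -0.94 against 0.015 over all genes tested. Their summed share of counts was 0.537, 0.239, 0.208 and 0.324% in KO_CCg_27, KO_CCg_29, WT_CCg_28 and WT_CCg_30, and from 0.341 to 0.784% in the long-number libraries, so KO_CCg_27 lay well inside the other group. Snap25, a synaptic fusion protein, was at 552, 195, 179 and 383 CPM against 336 to 1083 CPM (log2 fold change -1.16, SE 0.32, edgeR adjusted p = 0.0215). Thy1, a surface protein of projection neurons, fell by 1.201, Nsf, an ATPase of vesicle fusion, by 1.09, Uchl1, a neuronal deubiquitinase, by 1.07, and Nefm, a neurofilament subunit, by 0.78. Of the 20 the number whose groups did not overlap was 0. Without KO_CCg_27 and WT_CCg_717652 the median of the list was -1.46 and 5227 genes passed among all; these libraries were left out because they lay nearest the other format, which in itself widens the difference.

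Cortical excitatory markers fell in 11 of 20 and rose in 2, with a median of -1.002. Besides Slc17a7 and Neurod2, Slc30a3, the zinc transporter of glutamatergic vesicles, fell by 2.19 and Neurod6 by 1.99, and both groups of libraries were apart in each. The members that rose were Etv1, a deep-layer transcription factor that other cells also express, by 0.64, and Rorb. GABAergic interneuron markers fell in 8 of 16 and rose in 0, with a median of -0.69: Lhx6, a transcription factor of interneurons, fell by 1.36, Calb2, which codes for calretinin, by 1.10, Cck by 1.99 and Npy by 0.78. Immediate early genes, which respond to activity, fell in 4 of 24 and rose in 0 (median -0.13), against 12.8% lower among all genes tested. Bdnf, a growth factor of cortical neurons, fell by 2.15, Dusp5 by 0.92, Nptx2 by 0.84 and Nr4a3 by 0.77, while Fos, the usual marker of recent activity, differed by -0.01 in log2 (SE 0.26, adjusted p = 0.98).

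Striatal projection neuron markers took another course: 0 of 20 passed, and the median was -0.08, made of 0.55 in the knockout and -0.74 in the wild type. Their summed share of counts was 0.337% in KO_CCg_27 but 0.222% in KO_CCg_29, inside the 0.161 to 0.256% of the long-number knockout libraries. It was 0.105 and 0.0937% in WT_CCg_28 and WT_CCg_30 against 0.156 to 0.181% in the long-number wild-type libraries. Drd1, the dopamine receptor of the direct pathway, was at 64.1 and 40.9 CPM in KO_CCg_27 and KO_CCg_29 against 27.2 to 46.3 CPM in the long-number knockout libraries. It was at 16.2 and 13.1 CPM in WT_CCg_28 and WT_CCg_30 against 20.3 to 28.6 CPM in the long-number wild-type libraries. Its log2 fold change was 0.01 (SE 0.25, edgeR adjusted p = 0.98). Pde1b, a phosphodiesterase abundant in striatum, was 296 and 191 CPM in the first pair and 81.5 and 75.6 CPM in the second (-0.32, adjusted p = 0.34). Meis2 (0.30), Rarb (0.25) and Foxp1 (0.20), transcription factors of those neurons, did not pass either. The lists for the septum and the subventricular zone, the neurogenic layer along the ventricle, rose in 4 of 14 and fell in 0. Among all genes tested 13.8% were higher. The median of these lists was 0.09, and 5 of their members were negative. Without KO_CCg_27 and WT_CCg_717652, 4 were higher and 3 lower, with a median of -0.32. Sox11 (ENSMUSG00000063632.6, mm10 chromosome 12, 27334264 to 27342574), a transcription factor of young neurons, was at 158, 139, 100 and 85.6 CPM against 48.6 to 67.9 CPM, with no overlap (log2 fold change 1.10, SE 0.14, adjusted p = 0.002). Sox4 rose by 0.73, Cd24a by 0.76 and Dcx, the microtubule protein of migrating neurons, by 0.76. The rise of Dcx was 1.19 in the knockout and 0.24 in the wild type; the test of that difference passed for 0 genes.

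Myelin genes leaned the opposite way from neuron genes. Of 28 myelin protein genes, 7 rose and 0 fell (median 0.25), against 13.8% higher among all genes tested, and 26 of 28 had a positive sign. Their summed share of counts was 5.33, 8.13, 10 and 9.58% in KO_CCg_27, KO_CCg_29, WT_CCg_28 and WT_CCg_30 against 4.42 to 9.14% in the long-number libraries. Gpm6b (ENSMUSG00000031342.16, mm10 chromosome X, 166238911 to 166388988), a membrane protein of glia and neurons, was at 1686, 2029, 2390 and 2018 CPM, above the long-number range of 1151 to 1503 (log2 fold change 0.61, SE 0.10, edgeR adjusted p = 0.0038). Ermn, a cytoskeletal protein of oligodendrocytes, rose by 0.74, the tetraspanin Tspan2 by 0.62 and the gap junction protein Gjc3 by 0.60. Mbp (0.23, adjusted p = 0.42) and Mog (0.29, adjusted p = 0.19), both in the myelin sheath, did not pass. With the pan-neuronal level in the model the median of the list was -0.26 and 0 passed; with the GC offset 1 did.

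**Figure D3:**
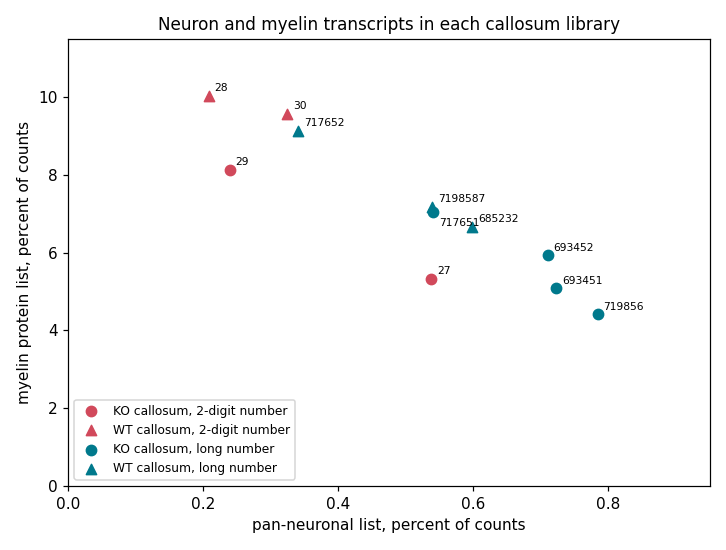
Each point is a callosum library, with the percent of its counts in the 20 pan-neuronal genes on the horizontal axis and in the 28 myelin protein genes on the vertical axis; labels give the library numbers. Libraries 28, 29 and 30 lie at the upper left with long-number library WT_CCg_717652, and 27 lies at 0.537 and 5.33%, among the long-number libraries.

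Other lists of the oligodendrocyte lineage held few genes that passed. Mature oligodendrocyte genes rose in 2 of 20 and fell in 0 (median 0.24): Anln, a septin-binding protein of myelin, by 0.81, and Il33, a nuclear cytokine, by 0.53. Newly formed oligodendrocyte genes also rose in 2 of 16 (median 0.24), Tcf7l2, a transcription factor of that stage, by 0.76 and Sox6 by 0.53. Precursor genes rose in 3 of 16 and fell in 1 (median 0.13). Vcan, an extracellular proteoglycan, rose by 0.53, Ptprz1, a receptor phosphatase, by 0.28 and Lhfpl3 by 0.27, and Cspg5 fell by 0.21. These shares stand beside 13.8% of all genes higher and 12.8% lower.

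Astrocyte genes rose in 5 of 20 and fell in 1 (median 0.15), against 13.8% higher and 12.8% lower among all genes tested. Sox9, the transcription factor that marks astrocytes, was at 97.4, 113, 89.8 and 107 CPM against 55.2 to 78.9 CPM (log2 fold change 0.66, SE 0.10, edgeR adjusted p = 0.00305). Glul, glutamine synthetase, rose by 0.41, the water channel gene Aqp4 by 0.39 and the connexin gene Gja1 by 0.36, the last with no overlap. Reactive astrocyte genes rose in 4 of 13, with Vim, an intermediate filament, by 0.50, the ferroxidase Cp by 0.46 and the complement gene C4b by 0.38, and fell in 1, Serpina3n, by 0.78. Gfap, the classical marker of reactive astrocytes, was at 637, 788, 1026 and 954 CPM against 524 to 960 CPM and did not pass (0.31, adjusted p = 0.11).

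Few members of the immune lists passed, and most of those rose. Their counts stand beside 13.8% higher and 12.8% lower among all genes tested. Most members of the microglia, antigen presentation and blood lists had a negative sign (11 of 20, 10 of 15 and 7 of 9). Microglia genes rose in 5 of 20 and fell in 0 (median -0.01), against 13.8% higher among all genes: Gpr34, a lysophospholipid receptor, by 0.54, Sall1, a transcription factor of microglia, by 0.41, and the lysosomal protease gene Ctss by 0.28. Aif1, the gene for the marker IBA1, was at 4.05, 3.81, 3.77 and 5.63 CPM against 4.23 to 7.01 CPM (-0.23, edgeR adjusted p = 0.25). Interferon response genes rose in 4 of 24 and fell in 0 (median 0.22), with Ifit3 at 0.82, Trim30a at 0.67, Ifit2 at 0.57 and the RNA sensor gene Ddx58 at 0.50. That median was 0.06 in the knockout and 0.43 in the wild type. The mean log2 CPM of the list was 2.10 to 2.82 in the short-number libraries and reached 2.87 in long-number library WT_CCg_7198587. Of the 15 antigen presentation genes (median -0.14, with -0.43 in the knockout and 0.10 in the wild type), H2-Q4 rose by 0.69. Ciita, the regulator of class II genes, fell by 0.84, with at most 1.23 CPM in any callosum library. Of 9 blood genes (median -0.15), Lyz2, the lysozyme of myeloid cells, rose by 0.38.

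Genes of fibroblasts and the meninges, and to a lesser degree of mural cells, fell in a larger share than the 12.8% of all genes; endothelial genes were near it. Fibroblast and meningeal genes fell in 9 of 17 and rose in 0 (median -0.68); their summed share of counts was 0.0193 to 0.0208% in the short-number libraries and 0.0233 to 0.0320% in the long-number ones, with no overlap. Slc6a13, a transporter of the meninges, was at 1.13, 1.04, 1.36 and 2.20 CPM against 2.92 to 4.30 CPM (log2 fold change -1.28, SE 0.20, edgeR adjusted p = 0.00332). Aldh1a2, which makes retinoic acid in the meninges, fell by 1.76, at 0.26 to 0.666 CPM against 0.654 to 3.39 CPM, low levels that overlapped. The collagen gene Col6a1 fell by 1.40 and Igf2 by 0.99. In the optic nerve Igf2 ranged from 1048 to 2003 CPM against 12.1 to 45.3 CPM in all callosum libraries. Mural cell genes fell in 5 of 16 and rose in 0 (median -0.29), with the smooth muscle genes Cnn1 by 2.06, Myh11 by 1.58 and Tagln by 1.04, and with Vtn, a pericyte gene, by 0.54 and with no overlap. The groups overlapped in Cnn1, Myh11 and Tagln, and Cnn1 was at most at 2.03 CPM in any callosum library. Endothelial genes fell in 3 of 20 and rose in 2 (median -0.07): Egfl7, a secreted angiogenic factor, fell by 0.55 and Bsg by 0.35, while the transporter gene Slco1a4 and the tight junction gene Ocln each rose by 0.43. Of 16 choroid plexus and ependymal genes 1 passed, Enkur, a gene of motile cilia, which rose by 0.65. Ttr, the main secreted protein of the choroid plexus, was at 39.9 CPM in WT_CCg_30 and at 1.40, 1.73 and 1.69 CPM in the other short-number libraries, against 0.218 to 5.93 CPM.

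Heat shock genes were higher in the short-number libraries as a list. Heat shock proteins are chaperones whose genes are switched on by the factor HSF1 when proteins unfold. All 16 members tested had a positive sign. Of these, 8 rose and 0 fell, against 13.8% higher among all genes tested. In 6 the groups did not overlap, against 6.67% of all genes tested lying wholly above and 5.47% wholly below. The median log2 fold change was 0.49 against 0.015 over all genes. Chordc1, a partner of HSP90 (ENSMUSG00000001774.7, mm10 chromosome 9, 18292125 to 18317442), was at 89.7, 81.1, 95.8 and 81.7 CPM in KO_CCg_27, KO_CCg_29, WT_CCg_28 and WT_CCg_30. It ranged from 46.5 to 54.5 CPM in the long-number libraries and from 20.9 to 54.7 CPM in the optic nerve. The short-number libraries thus lay above all 16 others, with a log2 fold change of 0.85 (SE 0.08, edgeR adjusted p = 3.99e-04). Hsp90aa1, the inducible HSP90, was at 1566, 1938, 2223 and 2064 CPM against 1053 to 1552 CPM (0.67), Dnaja1, a co-chaperone, at 345 to 414 CPM against 245 to 287 CPM (0.49), and Hspd1, the mitochondrial chaperonin, at 222 to 257 CPM against 149 to 195 CPM (0.49). With the pan-neuronal level in the model Chordc1 still passed (log2 fold change 0.78, adjusted p = 0.0192), and the other 7 list members that rose did not. With the GC offset its log2 fold change was 0.45 (adjusted p = 0.0201), and 6 members of the list passed.

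Hspd1 and its partner Hspe1, which sit head to head, show the element through which heat shock genes are known to be controlled. Hspe1 rose by 0.46 (edgeR adjusted p = 0.0365). The 30 bases below, from the RefSeq promoter table (GRCm38.p6, chr1:55088053-55088082, plus strand, the strand of Hspe1), hold 2 overlapping matches to a heat shock element, written as GAA, TTC and GAA with 2 bases of any kind between neighbours and searched on both strands, with the 18 matched bases in capitals, starting 89 bases before the start of Hspe1 and, read from the other strand, 144 bases before a start of Hspd1.
Hspe1 and Hspd1: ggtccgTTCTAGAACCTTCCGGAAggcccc
The same motif, on either strand of the 250 bases before each start, was found in 153 of 32851 promoters of the table (0.47%). Of the 12 heat shock list genes in that table, Hspd1 and Hspe1 had it. A match describes these letters only, and the remaining promoters may hold the element in another form or place.

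**Figure D4:**
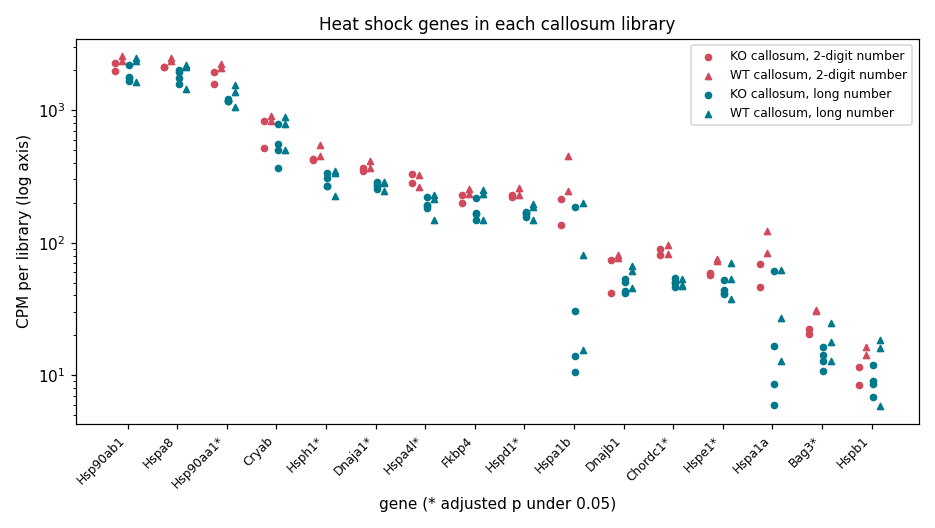
Each column is a heat shock gene and each point a callosum library, on a log axis of CPM, coloured by number format and shaped by genotype; an asterisk marks the 8 genes with an adjusted p under 0.05. Red short-number points lie above all blue points for 6 genes, among them Chordc1, Dnaja1, Hsp90aa1 and Hspd1, while Hspa1a and Hspa1b vary widely among the long-number libraries.

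Genes that respond to glucocorticoids, the stress hormones, also rose: 9 of 17 passed as higher and 0 as lower (median 0.41), against 13.8% higher among all genes tested. With the pan-neuronal level in the model 0 passed, and with the GC offset 8. Plin4, a lipid droplet protein (ENSMUSG00000002831.12, mm10 chromosome 17, 56100591 to 56109803), was at 61.4, 134, 158 and 133 CPM against 12.7 to 55.5 CPM with a median of 16.1 (log2 fold change 2.19, SE 0.42, edgeR adjusted p = 0.00554). The lowest short-number library, KO_CCg_27, lay just above the highest long-number one, WT_CCg_717652. Sgk1, a kinase induced by these hormones, was at 54.1, 159, 285 and 169 CPM against 44.9 to 137 CPM (1.15), Tsc22d3 rose by 0.57, Pdk4 by 0.56 and Fkbp5, a chaperone of the hormone receptor, by 0.49. In the share of counts of the myelin list, too, KO_CCg_27 was the lowest short-number and WT_CCg_717652 the highest long-number library.

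Clock genes split, 5 of 19 higher and 3 lower (median 0.13). The counts of this paragraph stand beside 13.8% higher and 12.8% lower among all genes tested. Bhlhe41 rose by 0.59, Cry1 by 0.55, at 34.1 to 37.3 CPM against 20.3 to 29 CPM, and Nr1d2 by 0.48, while Nr1d1, which codes for REV-ERB alpha, fell by 0.55; sampling times are not given in the labels. Hypoxia genes rose in 3 of 18 (median 0.11), P4ha1 by 0.75, Kdm3a by 0.46 and Mxi1 by 0.46, and the glycolytic gene Ldha fell by 0.77. Of 18 genes of the ER and integrated stress responses, 4 rose and 2 fell (median 0.18). Among them the ER chaperone genes Pdia4 (0.64), Hsp90b1 (0.43) and Dnajb9 (0.43) rose, and Chac1 (-1.31), a target of ATF4, fell. Of 25 cholesterol synthesis genes, Idi1 rose, by 0.48, and 14 had a negative sign (median -0.02). Histone genes of the replication-dependent kind rose in 2 of 11 and fell in 0, Hist1h2ac by 1.23 and Hist2h2be by 0.55. Hist1h2ac was low, at 0.891 to 1.19 CPM against 0.216 to 0.919 CPM, with overlap.

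Nuclear genes of the respiratory chain fell in a larger share than genes at large, and ribosomal protein genes did not. Of 66 cytosolic ribosomal protein genes, 6 fell and 0 rose (median -0.08), against 12.8% lower among all genes. Rpl11 was at 65.0, 65.6, 63.6 and 80.0 CPM against 106 to 168 CPM (log2 fold change -0.998, SE 0.12, edgeR adjusted p = 0.00168), Rpl35 fell by 0.70 and Rpl37 by 0.39. Of 67 nuclear genes of the respiratory chain, 20 fell and 0 rose (median -0.22), with Ndufa1 of complex I by 0.51, Cox5b and Cox6b1 of complex IV by 0.43 and 0.41, and Uqcrc1 of complex III by 0.36. Of 13 mitochondrially encoded genes, 3 rose and 0 fell (median 0.25), against 13.8% higher among all genes tested. Those that rose were mt-Nd3 by 0.46, mt-Atp8 by 0.40 and mt-Nd4 by 0.35. With an offset per library for GC content, an alternative chosen after the data were seen, their sign turned, and the changes were -0.08, -0.19 and -0.11. That offset was fitted to the levels of these same libraries. It takes out any difference that follows GC content, whatever its source.

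Base composition moved with the format over the whole table. The count-weighted mean GC content was 49.6 to 49.8% in the short-number libraries and 50.1 to 50.8% in the long-number ones, with no overlap (mean difference within genotypes -0.68 percentage points, exact permutation p = 0.00667, adjusted p = 0.03). This measure was not among those planned, so its p-value is a description only. Genes that rose had a median GC content of 44.3% and those that fell one of 55.0%, against 50.2% over all genes tested. With the GC offset, 2159 genes passed (959 higher and 1200 lower). The share of values above 0 that are whole numbers (within 1e-06) was 28.2 to 29.3% against 29.3 to 30.99%, ranges that meet at 29.31% (adjusted p = 0.04). The other 6 measures did not pass: counts in the 100 highest genes, in mitochondrial, ribosomal protein or pseudogene transcripts, the number of genes with at least 1 count and the count-weighted transcript length had adjusted p from 0.075 to 0.827.

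Genes of the Y chromosome were present in all libraries, so each sample holds male RNA, and they rose in the short-number libraries. Ddx3y was at 93.1, 111, 117 and 95.1 CPM against 59.6 to 79.2 CPM (log2 fold change 0.61, SE 0.09, edgeR adjusted p = 0.00305), Uty rose by 0.61 and Kdm5d by 0.59, and the X-linked Eif2s3x by 0.26. Over the 6 sex chromosome genes tested, 5 rose and 0 fell (median 0.60), against 13.8% higher among all genes tested. With the GC offset the median was 0.15 and 1 passed, and with the pan-neuronal level in the model 0 did. Xist is listed at 0 in all 20 libraries, and so is Malat1, an abundant nuclear RNA, so such a 0 says nothing about the tissue. Nnt, which is partly deleted in the 6J substrain of C57BL mice, was at 19.0, 19.7, 15.3 and 13.1 CPM against 15.5 to 19.4 CPM (-0.03, adjusted p = 0.88). Of 8 genes known to differ between substrains, 3 fell, against 12.8% of all genes tested, among them Cyfip2 by 0.95 and Entpd4 by 0.56. Cyfip2 is also a neuronal gene.

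**Figure D5:**
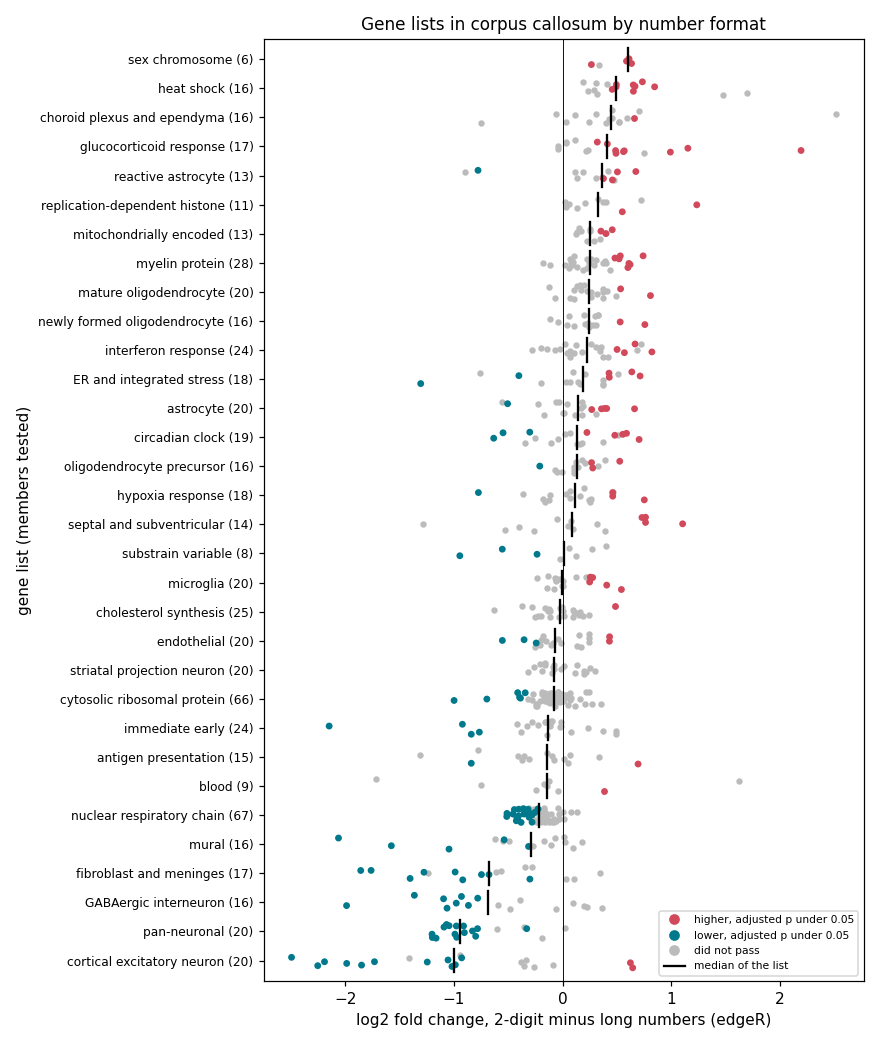
Each row is a gene list with the number of members tested, each point a member at its log2 fold change (short minus long numbers), red or blue where it passed as higher or lower and grey where it did not, and the black bar is the median. Lists with fewer than 5 members tested are not drawn. The lists of cortical, pan-neuronal and interneuron genes lie furthest left, at medians of -1.002, -0.94 and -0.69, and those of sex chromosome and heat shock genes furthest right, at 0.60 and 0.49.

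Of the other genes with the largest rises, most were at low levels. Ccn5, a matricellular protein, was at 3.24, 4.62, 1.75 and 4.30 CPM against 0.62 to 2.40 CPM (log2 fold change 1.40), Fmo2, a monooxygenase, at 3.02 to 4.93 CPM against 0.556 to 3.74 CPM (1.22) and Zbbx, a gene of ciliated cells, at 1.88 to 4.90 CPM against 0.827 to 2.36 CPM (1.12). Esco2, a cohesin acetyltransferase of dividing cells, was at 3.54 to 6.64 CPM against 1.77 to 3.54 CPM (1.10), and BC049715 at 7.05 to 12.2 CPM against 3.14 to 6.06 CPM (1.16). The groups overlapped in CPM in all but BC049715 of these 5.

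For the difference between genotypes, the 3 named genes with the smallest p were Impg1, Krt9 and Prokr2, none past the threshold. Krt9 was at 25.1 and 12.2 CPM in the short-number knockout libraries, at 4.09 and 4.04 CPM in the short-number wild-type ones and between 8.83 and 15.7 CPM in the long-number ones (difference 2.08, unadjusted p = 8.23e-04). Impg1 (2.62) and Prokr2 (1.53), a receptor of prokineticin, had the same order, with unadjusted p of 4.65e-04 and 9.59e-04; the adjusted p rounds to 1 for all of them. The gene that DESeq2 called was Rpl14-ps1, a pseudogene that the naming rule leaves out, at 6.57 and 5.78 CPM in KO_CCg_27 and KO_CCg_29, 24.5 and 23.6 CPM in WT_CCg_28 and WT_CCg_30, and 0 in the 3 long-number wild-type libraries. Its difference was -9.67 in edgeR, which depends on the prior count because a group is at 0 (adjusted p = 0.90); it passed there without KO_CCg_719856 (-9.01, adjusted p = 0.0441).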

How the data were processed

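RNA from corpus callosum and optic nerve was sequenced with a stranded mRNA kit, per the labels' protocols. The deposited table holds estimated counts (expected counts) of reads per gene, which the authors left unscaled; the genome is mm10 per the submitters' processing notes, and no source used here names a quantifier version or annotation release. It lists 46517 genes, 46005 matched to a GENCODE M21 symbol without version suffix; 22291 are at 0 in all 20 libraries, and 0 pairs of libraries are identical.

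Libraries were grouped by genotype and by the digits of their number. Counts were rounded, filtered with filterByExpr (minimum count 10, total 15), scaled with TMM and fitted with the edgeR 4.0.16 quasi-likelihood test, with format and genotype as terms; a fit of 4 groups gave the contrasts within genotypes and their difference. P-values were Benjamini-Hochberg adjusted over all genes, and each standard error is the absolute fold change over the root of its F value. Library measures were compared by exact permutation, with GC content and the pseudogene share added to the planned ones. Words of 31 bases were counted in GENCODE transcripts on either strand, for 24066 of 24226 genes above 0. The steps were tested on simulated data.

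The libraries compared, the gene lists and the tests were chosen with earlier results of these data known. Named genes are Zdhhc9, the 10 largest rises and falls past the threshold (mean log2 CPM 1 or more), up to 4 members of each list by p, the 3 smallest p of the interaction, and Mbp, Mog, Snap25, Gfap, Aif1, Drd1, Slc17a7, Fos, Xist and Nnt; predicted genes and pseudogenes are skipped except where said, and some genes under the rule are not reported here. Genes named outside it (the pseudogenes and their parents, Hspe1, Rorb, Malat1) were chosen after their values were seen. Alternatives were other scaling, filters, DESeq2 1.42.0, limma-voom 3.58.1, marker levels as covariates, all 20 libraries and leaving out each library; a GC offset, thinned counts, a gene subset and leaving out 2 libraries together were added after seeing the data.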

Additional observations from a re-analysis of the deposited data

Results flagged for a closer look

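In 11 of 124 groups of values looked at, 1 library lay further from the others of its format than Dixon's 95% limit allows; chance flags about 1 in 20 such groups. Among the long-number libraries, WT_CCg_717652 was the lowest for the mean log2 CPM of the pan-neuronal list (6.94, next 7.585) and of the interneuron list (4.32, next 4.79), and the highest for the glucocorticoid list (5.36, next 4.96) and for Fmo2 (3.74 CPM, next 1.88). KO_CCg_693452 was the highest for immediate early genes (4.82, next 4.34), and WT_CCg_7198587 for blood genes (3.84, next 2.97). Among the short-number libraries, KO_CCg_27 was the highest for the substrain list (5.87, next 5.50) and the lowest for Elp6 (3601 CPM, next 4228). WT_CCg_30 was the highest for Prdm8 (10.9 CPM, next 3.30) and Cabp7 (16 CPM, next 6.22), and KO_CCg_29 for Grip2 (293 CPM, next 188).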

How the results depend on the processing

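No paired analysis was possible because the number formats share no sample number. Of 133 named genes that passed, 9 still did with the pan-neuronal level in the model, 79 without KO_CCg_29, 80 with the GC offset and 85 without WT_CCg_28. Over genes with little shared sequence, 88 of the 133 were tested and 87 of these passed. In the other settings 103 or more passed, and the cause of the losses was not tested. The count of 4320 genes was 41 with the pan-neuronal level and 2159 with the GC offset, and 1912 to 4471 when each library was left out. In the knockout it was 550 in a fit of its 6 libraries alone and 14 to 1727 with 1 left out; in the wild type 15 alone and 6 to 18. The genotype difference gave 1 gene in DESeq2 and 0 to 1 with 1 library left out. Leaving out each library, the difference in total counts ran from -6979975 to -4914755, in GC content from -0.755 to -0.599 points, in whole-number values from -1.498 to -1.093 points, in genes with a count from -165.7 to 97.79, in transcript length from -42.71 to 0.792 bases and in pseudogene counts from -0.00982 to 0.0420 points. For the first 3 measures an adjusted p under 0.05 was not reached in most of these settings, which hold fewer libraries. Log2 fold changes that turned sign were, with the pan-neuronal level, Mbp (-0.32), Mog (-0.13) and Gfap (-0.0010); with the myelin level, Mbp (-0.13) and Nnt (0.050); with the GC offset, Lhfpl3 (-0.093), mt-Atp8 (-0.19), mt-Nd4 (-0.11), mt-Nd3 (-0.079), Drd1 (-0.11) and Fos (0.095); and with the genotype left out, Zdhhc9 (0.15). Without KO_CCg_27 and WT_CCg_717652 they were Drd1 (-0.32), Fos (0.058) and Zdhhc9 (0.099). Drd1 was also -0.0093 with DESeq2 size factors, -0.019 in DESeq2, -0.090 in limma-voom and -0.10 with all 20 libraries, and Fos 0.0034 with upper quartile scaling. Leaving out each library gave -0.29 to 0.21 for Drd1, -0.12 to 0.15 for Fos, -0.099 to 0.068 for Nnt and -0.078 to 0.049 for Zdhhc9. List medians that moved with the pan-neuronal level were pan-neuronal (-0.054), cortical (-0.29), interneuron (-0.29), septal and subventricular (0.74), myelin (-0.26), mature (-0.17) and newly formed oligodendrocyte (-0.19), precursor (-0.17), reactive astrocyte (0.058), microglia (-0.14), mural (-0.49), mitochondrially encoded (0.46), long noncoding (-0.0080), histone (0.021), glucocorticoid (0.19), cholesterol (-0.23) and sex chromosome (0.43). With the myelin level they were septal (0.52), myelin (-0.046), mature oligodendrocyte (-0.033), precursor (-0.11), microglia (-0.13), hypoxia (0.024) and cholesterol (-0.17). Without KO_CCg_27 and WT_CCg_717652 they were pan-neuronal (-1.46), striatal (-0.36), interneuron (-0.96), septal (-0.32), cholesterol (0.11) and substrain (-0.17). With the GC offset they were endothelial (0.022), mitochondrially encoded (-0.12) and sex chromosome (0.15), and over genes with little shared sequence antigen presentation (-0.32), blood (0.71) and hypoxia (0.25). The pan-neuronal and myelin levels are means over the members of those same lists. That each of these lists then had a median near 0 is built into the model. Leaving out each library, the clock median ran from 0.013 to 0.18, the striatal from -0.37 to 0.18 and the substrain from -0.16 to 0.084.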

Other observations

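Of the 41 genes that passed with the pan-neuronal level in the model, 15 are pseudogenes and 6 more are predicted genes with a Gm symbol, against 3.77% pseudogenes among all genes tested. Snhg11, a neuronal RNA and the long noncoding gene of its list that was tested, fell by 0.86 in log2.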
